A study of Bos taurus and Ovis aries and Capra hircus with 18 samples.

Results

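The immediate early genes described here are EGR1, EGR2, EGR3, FOS, FOSB, JUNB, NR4A1, NR4A2, NR4A3 and DUSP1, which are 10 of the 27607 gene models counted in cattle. Cattle models were named by their position, and the partners in sheep and goat were found by exon lengths and gene order, which gave all 10 genes a partner in both species. The libraries came from adult cattle brain, cattle muscle, sheep brain, sheep muscle, goat brain and goat muscle, with 3 libraries, called A, B and C, in each of these 6 groups. No library had a treatment or a genotype in its labels. Per the sample records all RNA was taken with TRIzol from frozen tissue and selected with oligo(dT) beads. The extraction text of the muscle samples names brain, however, so how muscle RNA was taken is less certain. No source used here states the brain region, the muscle or the time between death and freezing. Nothing says that the letters mark separate animals either, so the p-values measure only the spread between these libraries.

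Immediate early genes are transcribed within minutes of a stimulus, because the factors that switch them on are already present in the cell and need no new protein. EGR proteins are zinc finger transcription factors, FOS and FOSB pair with JUN proteins such as JUNB to form AP-1, the NR4A genes encode orphan nuclear receptors, and DUSP1 is a phosphatase that switches MAP kinases off. In brain they are used as marks of recent neuronal activity, and in muscle they are known to answer exercise, stretch and injury.

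Levels are CPM per kb, so that genes and species can be set side by side. Counts were divided by the kilobases of exon in that species' own model. They were then scaled to a total adjusted by the trimmed mean of M values (TMM). That total was the sum of length-corrected counts over the 13074 matched genes tested, not over the whole library. Standard errors (SE) follow ± beside log2 folds and standard deviations (SD) beside levels. A gene is called when the edgeR quasi-likelihood test gives a Benjamini-Hochberg adjusted p below 0.05 over all genes tested and the log2 fold is at least 1 in size. Library totals ran from 20730803 to 58514630 counts, and the counts of the 10 genes ran from 12 for NR4A3 in sheep brain C to 50979 for FOS in sheep muscle A. All 10 genes passed the filter on low counts in every fit, and none of their models shares exons with another gene model.

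The labelled tissues carried their own markers. The summed level of 6 neuron markers was 1474 to 2964 CPM per kb in the brain libraries and 2.12 to 5.77 in the muscle libraries, and that of 7 markers of skeletal muscle fibres was 4.90 to 22.7 in brain and 33506 to 80466 in muscle. Sheep brain C stood apart from its group: the median chi-square between the counts of 2 libraries was 135 and 139.9 for C against A and B, and 4.81 between A and B. Goat muscle C stood apart to a smaller degree, with 20.8 and 24.5 against A and B, and 3.60 between A and B. So did cattle brain C, with 13.6 and 18.1 against A and B, and 4.24 between A and B.

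Brain and muscle differed in most of the 10 genes in cattle, but the direction depended on the gene and the species. In cattle 9 of 10 were called, 4 higher and 5 lower in brain, where 59.3% of all genes tested were called, 33.9% higher and 25.3% lower. In sheep 7 of 10 were called, all of them lower in brain, against 47.7% of all genes, 28.6% higher and 19.1% lower. In goat 5 of 10 were called, 3 higher and 2 lower in brain, against 54.6% of all genes, 31.4% higher and 23.2% lower. The median log2 fold of the 10 genes was -0.13 in cattle, -3.00 in sheep and 0.04 in goat, beside 0.09, 0.17 and 0.12 over all genes. The cattle count is above its background share and mixed in direction, the goat count is near its background, and every sheep call is lower in brain. Without sheep brain C, 7 genes were called in sheep as well. All 3 brain libraries were above all 3 muscle libraries for 4 of the 10 genes in cattle (42.6% of all genes tested), 0 in sheep (34.9%) and 3 in goat (38.5%), and below them for 5 (36.8%), 7 (31.2%) and 2 (29.6%). In bulk tissue, fewer cells of a type and less RNA per cell cannot be told apart, which holds for every fold given here.

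**Figure D1:**
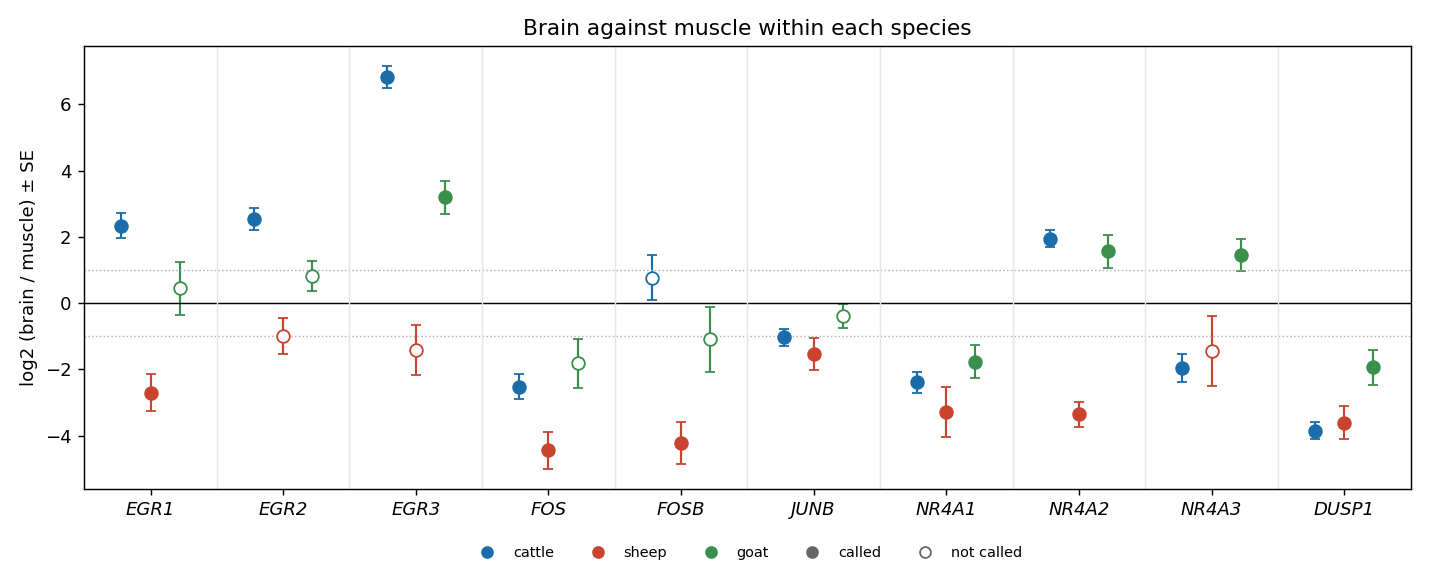
Log2 fold of brain over muscle for each of the 10 genes in cattle, sheep and goat, with bars of 1 SE; filled points were called and open points were not, and dotted lines mark a log2 fold of 1 in either direction. EGR1 and NR4A2 have called folds on opposite sides of 0 in cattle and sheep, while all 3 points of NR4A1 and of DUSP1 are filled and lie below 0.

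In a fit of all 18 libraries that allowed for species, 5 of 10 genes were called between brain and muscle, where 54.3% of all genes tested were called, 31.1% higher and 23.2% lower. EGR3 was the gene called higher in brain, with a log2 fold of 2.93 ± 1.13. The others called were lower in brain: DUSP1 at -3.20 ± 0.37, FOS at -2.95 ± 0.49, NR4A1 at -2.53 ± 0.38 and JUNB at -1.03 ± 0.26. The call of EGR3 was lost without any one of the 3 cattle muscle libraries (2.32 to 2.35) and without goat muscle A (2.77) or C (2.73). That of JUNB was lost without any one of 6 libraries, with log2 folds of -0.90 to -0.999, with RLE scaling or DESeq2 (-0.97 in both) and with library totals (-0.071), and the count fell to 3 without cattle muscle C.

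The tissue difference itself differed between species for 5 of 10 genes by the interaction test, which sets no minimum fold and which 25.7% of all genes tested passed. These were NR4A2 (adjusted p = 4.43e-05), EGR3 (7.5e-05), EGR2 (0.00387), EGR1 (0.00823) and FOSB (0.0348). All 3 EGR genes are among them, and so are FOSB and one of the NR4A receptors. FOSB passed narrowly, and its adjusted p rose above the threshold without any one of 9 libraries, to at most 0.0818. NR4A3 and DUSP1, which did not pass, passed without sheep brain C (0.0153 and 0.0151) and with the replicate letter as a block (0.0384 and 0.0422). NR4A3 also passed without sheep brain B (0.00588) or sheep muscle A (0.0493) and with DESeq2 (0.0153). Without goat muscle B, FOS (0.00582) and DUSP1 (0.011) passed.

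**Figure D2:**
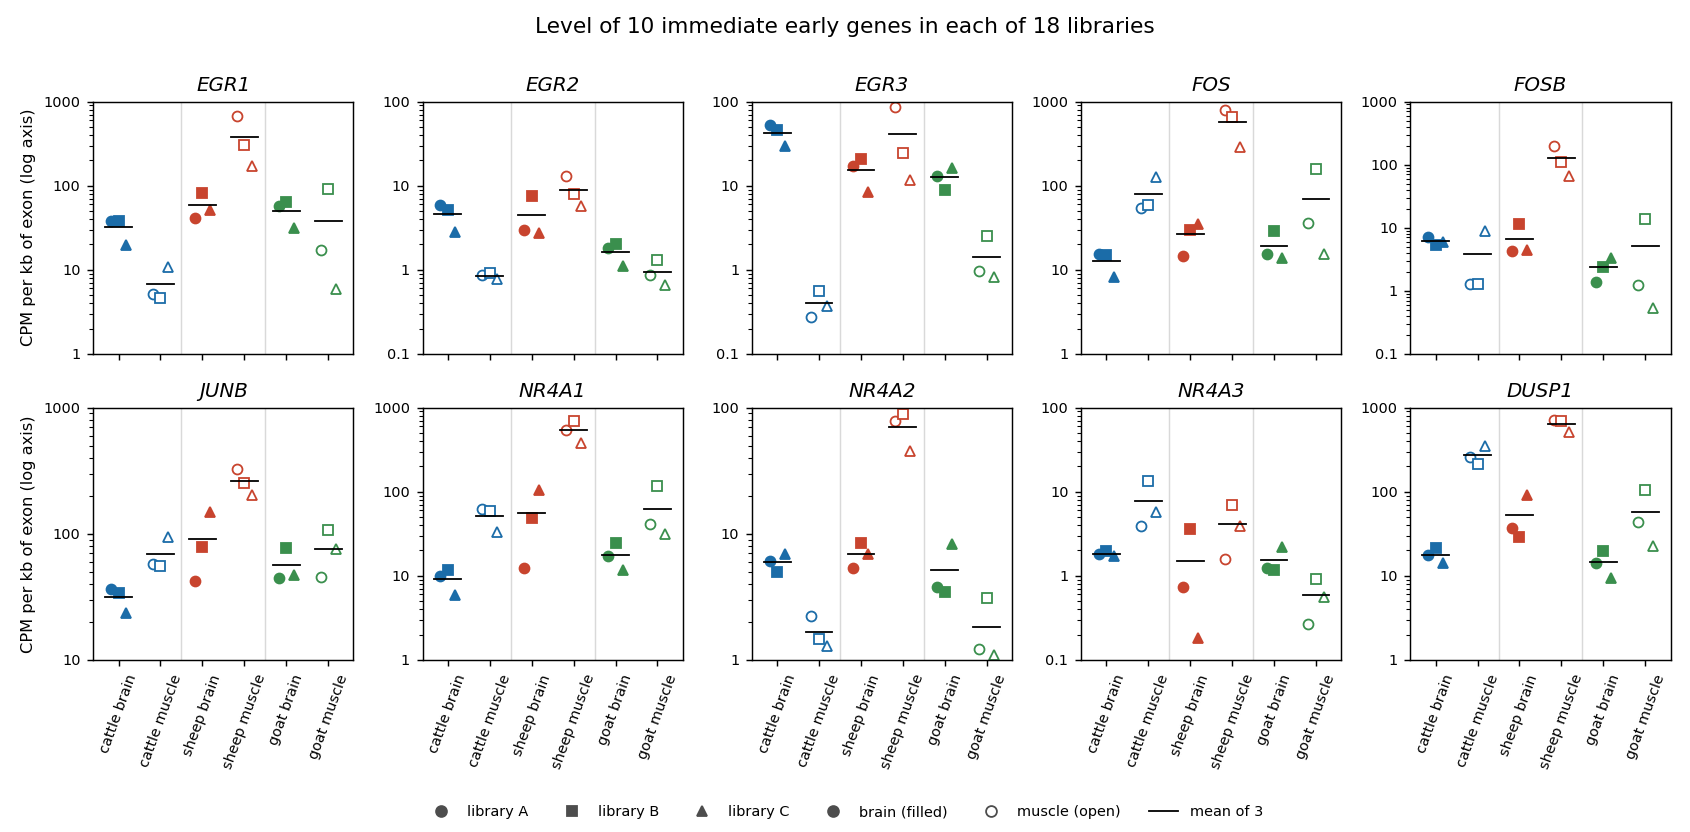
Level of each gene in each of the 18 libraries, in CPM per kb of exon on a log axis, with brain left of muscle for cattle, sheep and goat; marker shapes give the library letter, filled markers are brain, open markers are muscle and black lines are means of 3. Sheep muscle is the highest group for every gene except EGR3 and NR4A3.

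EGR1 is a zinc finger factor induced in many tissues, and its cattle model (ENSBTAG00000010069) lies on chromosome 7 from 49825961 to 49830306 of ARS-UCD1.2. In cattle it stood at 38.3, 38.1 and 19.9 CPM per kb in brain A, B and C, against 5.14, 4.57 and 10.7 in muscle. In sheep it stood at 40.9, 82.4 and 51.8 in brain, against 665, 303 and 171 in muscle. In goat it stood at 57.0, 63.1 and 31.5 in brain, against 17.0, 90.7 and 5.88 in muscle. Every cattle brain library was above every cattle muscle library, every sheep brain library was below every sheep muscle library, and the goat groups overlapped because muscle B was above all 3 brain libraries. EGR1 was higher in brain in cattle, with a log2 fold of 2.34 ± 0.38 (adjusted p = 0.000565), and lower in brain in sheep, at -2.70 ± 0.57 (adjusted p = 0.0078). The goat fold of 0.45 ± 0.80 was not called (95% interval -1.36 to 2.26), and it was 2.12 and called without goat muscle B and -0.096 without goat muscle C, so its sign rests on goat muscle C.

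EGR3, which is needed in mice for the formation of muscle spindles and is induced by neuronal activity, has its cattle model (ENSBTAG00000019293) on chromosome 8 from 69996238 to 70000191. It stood at 52.7, 45.5 and 29.8 CPM per kb in cattle brain, against 0.271, 0.557 and 0.367 in cattle muscle. In sheep the levels were 16.9, 20.6 and 8.51 in brain, against 87.1, 24.5 and 11.8 in muscle. In goat they were 13.2, 8.95 and 16.3 in brain, against 0.961, 2.52 and 0.813 in muscle. Brain and muscle were far apart in cattle and goat, and they overlapped in sheep, where muscle C was below brain A and B. The log2 fold of 6.82 ± 0.34 in cattle (adjusted p = 4.67e-07), 113-fold, was the largest of the 10 genes in any species. Its size rests on low counts in cattle muscle, 14, 36 and 22 in A, B and C. Goat gave 3.19 ± 0.49 (adjusted p = 0.000438), and the sheep fold of -1.41 ± 0.76 was not called (95% interval -3.22 to 0.39). Cattle brain was the group of highest mean for EGR3, at 42.7 ± 11.7 CPM per kb, with sheep muscle at 41.1 ± 40.3 (SD, n = 3 each), and their ranges overlapped.

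EGR2, known for its part in the myelination of peripheral nerves, has its cattle model (ENSBTAG00000046409) on chromosome 28 from 18936997 to 18942296. It was the least abundant EGR gene in brain of all 3 species, at 5.84, 5.14 and 2.83 CPM per kb in cattle brain, against 0.858, 0.914 and 0.772 in cattle muscle. In sheep it stood at 2.99, 7.63 and 2.77 in brain, against 13.2, 7.92 and 5.73 in muscle. In goat it stood at 1.81, 2.001 and 1.11 in brain, against 0.874, 1.32 and 0.659 in muscle. Only the cattle groups were apart, and EGR2 was called there alone, with a log2 fold of 2.54 ± 0.34 (adjusted p = 0.000162). The folds not called were -0.998 ± 0.54 in sheep and 0.82 ± 0.46 in goat. Without sheep brain B the sheep fold was -1.63 and called. Scaling by library totals, which raises the median fold over all genes, put the sheep fold at 0.0077 and the goat fold at 1.55, called.

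FOS, the AP-1 subunit most used as a mark of recent stimulation, has its cattle model (ENSBTAG00000004322) on chromosome 10 from 86488645 to 86492108. It stood at 15.4, 14.8 and 8.26 CPM per kb in cattle brain, against 53.8, 58.4 and 125 in cattle muscle. Sheep brain held 14.4, 30.0 and 35.4, against 792, 654 and 285 in sheep muscle. Goat brain held 15.5, 28.9 and 13.7, against 36.4, 158 and 15.6 in goat muscle. Muscle lay above brain without overlap in cattle and sheep, and in goat muscle C fell within the range of brain. FOS was lower in brain by a log2 fold of -2.52 ± 0.38 in cattle (adjusted p = 0.000362) and -4.44 ± 0.56 in sheep (adjusted p = 0.000908), which is 5.75-fold and 21.7-fold. The goat fold of -1.81 ± 0.74 was not called (adjusted p = 0.0598), and it was called without goat muscle A (-2.18) or C (-2.33) and, at -1.83, with RLE scaling or DESeq2.

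FOSB, whose splice forms include the stable protein delta FosB, has its cattle model (ENSBTAG00000008182) on chromosome 18 from 53074888 to 53081288. It stood at 7.04, 5.27 and 5.86 CPM per kb in cattle brain, against 1.30, 1.29 and 8.91 in cattle muscle. Sheep brain held 4.34, 11.3 and 4.51, against 199, 111 and 66.6 in sheep muscle. Goat brain held 1.36, 2.42 and 3.31, against 1.24, 13.8 and 0.536 in goat muscle. One muscle library was far above the other two in cattle (C) and in goat (B), and the tissues overlapped in both species. FOSB was called in sheep, where it was lower in brain at -4.22 ± 0.63 (adjusted p = 0.00188). It was not called in cattle (0.76 ± 0.68) or goat (-1.10 ± 0.99), and without cattle muscle C the cattle fold was 2.33 and called. The sign in goat rests on 1 library, since the fold was 1.38 without goat muscle B, and it was 0.068 with the replicate letter as a block.

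JUNB, a partner of FOS proteins in AP-1 encoded by a single exon, has its cattle model (ENSBTAG00000012046) on chromosome 7 from 12736091 to 12737893. It varied less between groups than the other genes, with 36.4, 34.2 and 23.6 CPM per kb in cattle brain, against 57.3, 55.5 and 94.0 in cattle muscle. Sheep brain held 42.1, 78.8 and 149, against 326, 252 and 204 in sheep muscle. Goat brain held 44.8, 77.7 and 47.4, against 45.1, 108 and 76.2 in goat muscle. Brain was below muscle in every library of cattle and sheep, and the goat groups overlapped. JUNB was called lower in brain in cattle, at -1.03 ± 0.25 (adjusted p = 0.00534), and in sheep, at -1.54 ± 0.48 (adjusted p = 0.0344). Both calls were thin: that in cattle was lost without cattle brain C (-0.82) or cattle muscle C (-0.74), and that in sheep without any one of 5 sheep libraries (-1.21 to -1.71) or with the replicate letter as a block (-1.69). The cattle call was also lost with no filter on low counts (-0.97), and scaling by library totals ended both, at -0.37 in cattle and -0.65 in sheep. The goat fold was -0.38 ± 0.36 and not called, and it was 0.38 with library totals.

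NR4A1, the nuclear receptor also called Nur77, has its cattle model (ENSBTAG00000000507) on chromosome 5 from 27820352 to 27839685. It stood at 9.93, 11.6 and 5.92 CPM per kb in cattle brain, against 62.2, 59.2 and 33.3 in cattle muscle. Sheep brain held 12.3, 48.3 and 105, against 539, 692 and 380.5 in sheep muscle. Goat brain held 17.3, 24.6 and 11.8, against 41.2, 115 and 31.4 in goat muscle. Brain was below muscle without overlap in all 3 species, as for DUSP1. All 3 species were called, with log2 folds of -2.39 ± 0.32 for cattle (adjusted p = 0.000166), -3.29 ± 0.75 for sheep (adjusted p = 0.0107) and -1.76 ± 0.51 for goat (adjusted p = 0.0141). The goat call was lost without goat brain C (-1.53) and with scaling by library totals (-1.04).

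NR4A2, also called Nurr1 and needed for dopamine neurons of the midbrain in mice, has its cattle model (ENSBTAG00000003650) on chromosome 2 from 39887966 to 39905341. It stood at 6.06, 4.95 and 6.90 CPM per kb in cattle brain, against 2.23, 1.47 and 1.30 in cattle muscle. Sheep brain held 5.31, 8.48 and 6.90, against 78.2, 88.9 and 45.3 in sheep muscle. Goat brain held 3.82, 3.47 and 8.30, against 1.23, 3.09 and 1.10 in goat muscle. On levels per kb the 3 brain groups overlapped, while with no correction for length goat brain was above cattle brain (log2 fold of cattle over goat -1.43) and above sheep brain (sheep over goat -1.30), both called. Sheep muscle was above all brain libraries, and cattle and goat muscle were below all of them. NR4A2 was higher in brain in cattle, at 1.95 ± 0.26 (adjusted p = 0.000166), and in goat, at 1.56 ± 0.49 (adjusted p = 0.0217), and lower in brain in sheep, at -3.36 ± 0.39 (adjusted p = 0.000638). The goat call was lost without goat brain C (1.06), goat muscle A (1.28) or goat muscle C (1.26).

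NR4A3, the third NR4A receptor, has its cattle model (ENSBTAG00000001864) on chromosome 8 from 64872311 to 64912348. It was the least abundant of the 10 genes in brain, at 1.80, 1.98 and 1.70 CPM per kb in cattle brain, against 3.90, 13.4 and 5.75 in cattle muscle. Sheep brain held 0.742, 3.59 and 0.184, against 1.56, 6.94 and 3.92 in sheep muscle. Goat brain held 1.25, 1.16 and 2.23, against 0.268, 0.920 and 0.566 in goat muscle. Cattle brain was below cattle muscle, goat brain was above goat muscle, and the sheep groups overlapped. NR4A3 was lower in brain in cattle, at -1.96 ± 0.42 (adjusted p = 0.00276), and higher in brain in goat, at 1.45 ± 0.49 (adjusted p = 0.0279). The sheep fold of -1.44 ± 1.05 was not called and was -3.13 and called without sheep brain B, and the goat call was lost without goat brain C (1.10), goat muscle A (1.02) or goat muscle C (1.37). NR4A3 did not pass the interaction test over the 3 species (adjusted p = 0.0532).

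DUSP1, the MAP kinase phosphatase, has its cattle model (ENSBTAG00000013863) on chromosome 20 from 4540518 to 4543611. It was the most abundant of the 10 genes in cattle and sheep muscle, with 17.5, 21.6 and 14.2 CPM per kb in cattle brain, against 259, 214 and 354 in cattle muscle. Sheep brain held 37.3, 29.3 and 90.6, against 708, 692 and 515 in sheep muscle. Goat brain held 14.1, 19.8 and 9.46, against 43.6, 104 and 22.9 in goat muscle. Every brain library was below every muscle library of its species. DUSP1 was lower in brain by log2 folds of -3.85 ± 0.26 in cattle, -3.61 ± 0.50 in sheep and -1.94 ± 0.54 in goat (adjusted p = 2.74e-06, 0.00136 and 0.0117). The goat call was lost with scaling by library totals (-1.22) and without goat brain C (-1.70), and without that library 1 of the 10 genes was called in goat, EGR3.

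More of the genes differed between species in muscle than in brain, and sheep muscle was the high group. Sheep muscle was higher than goat muscle for 10 of 10 genes, where 24% of all genes tested were called, 13.1% higher and 10.9% lower. The log2 folds were 5.29 ± 0.49 for NR4A2, 4.83 ± 0.68 for EGR3, 4.59 ± 1.04 for FOSB, 3.48 ± 0.53 for DUSP1, 3.33 ± 0.77 for EGR1 and 3.22 ± 0.49 for EGR2. They were 3.10 ± 0.64 for NR4A1, 3.04 ± 0.69 for FOS, 2.82 ± 0.81 for NR4A3 and 1.77 ± 0.42 for JUNB. The smallest of these is 3.42-fold and that of NR4A2 is 39.1-fold. Members of all 4 families were higher in sheep, and NR4A3 was the one whose call was lost without a library, sheep muscle B (2.23) or goat muscle A (2.48). The gene models differ in length, FOSB having 3218 exonic bases in cattle, 1026 in sheep and 3362 in goat, and with no correction for length 9 of the 10 genes were called between sheep and goat, NR4A3 falling to 1.33 and losing its call.

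Cattle muscle was lower than sheep muscle for 8 of 10 genes, where 30.4% of all genes tested were called, 13.6% higher and 16.8% lower. The log2 folds were -6.67 ± 0.75 for EGR3, -5.80 ± 0.87 for EGR1, -5.41 ± 0.50 for NR4A2, -5.03 ± 1.07 for FOSB and -3.40 ± 0.49 for EGR2. They were -3.38 ± 0.65 for NR4A1, -2.87 ± 0.69 for FOS and -1.92 ± 0.43 for JUNB. These folds ran from 3.78 for JUNB to 102 for EGR3, with EGR2 and NR4A1 near equal at 10.5 and 10.4. Cattle muscle held only 14 to 36 counts of EGR3 and 24 to 32 of EGR2. DUSP1 (-1.21 ± 0.48, 95% interval -2.23 to -0.19) and NR4A3 (0.89 ± 0.76, 95% interval -0.71 to 2.49) were not called. DUSP1 was called with DESeq2 (-1.16) and without sheep brain B (-1.22), sheep brain C (-1.14), goat muscle B (-1.22) or goat muscle C (-1.22). This comparison shares the sheep muscle libraries with the one against goat.

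Between cattle and goat muscle 4 of 10 genes were called, where 34.3% of all genes tested were, 17.1% higher and 17.2% lower. NR4A3 (3.71 ± 0.84) and DUSP1 (2.27 ± 0.50) were higher in cattle, and EGR1 (-2.48 ± 0.75) and EGR3 (-1.84 ± 0.66) were lower. The count is near the background share. Without goat muscle B the fold of EGR1 was -0.75 and that of EGR3 -1.15, neither called, and FOS was called at 1.60. Both were also lost without cattle muscle A (-2.31 for EGR1 and -1.63 for EGR3), EGR1 was lost without cattle muscle B (-2.26) and EGR3 without cattle muscle C (-1.78). With no length correction NR4A3 and NR4A2 were the 2 genes called, NR4A2 at -1.73 in place of -0.12 ± 0.42, with a cattle model of 2941 exonic bases and a goat model of 7333.

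**Figure D3:**
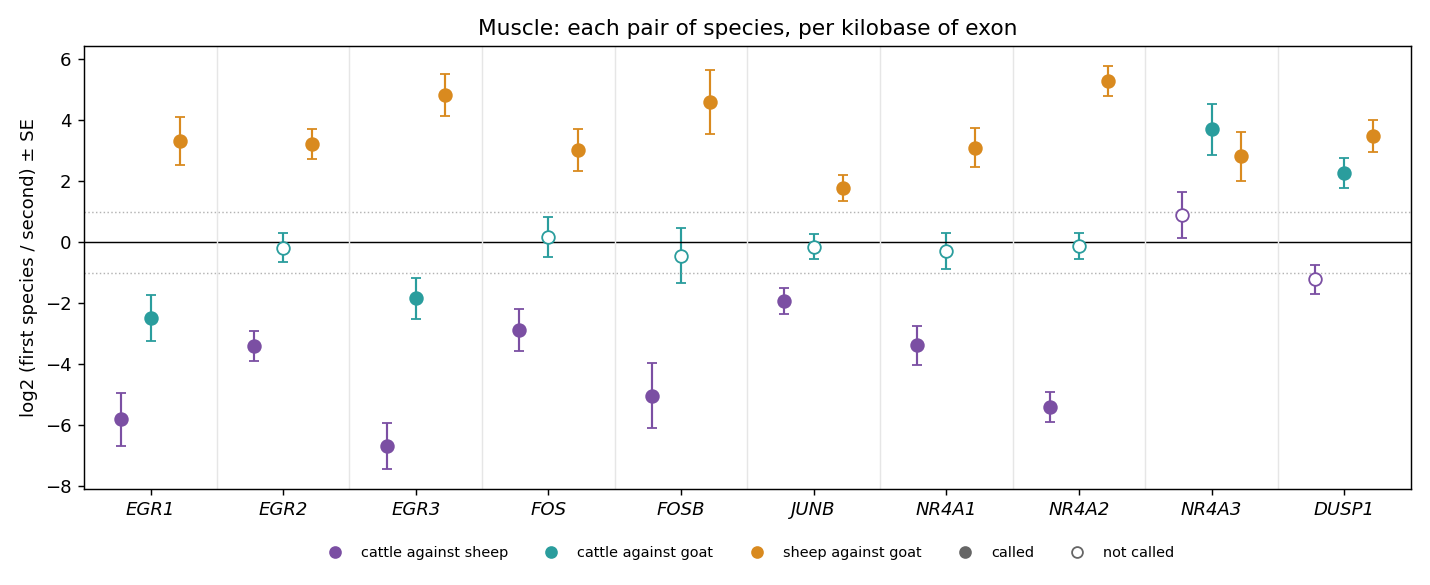
Log2 folds between the muscle groups of each pair of species, with bars of 1 SE, on levels corrected for exonic length; filled points were called, open points were not, and dotted lines mark a log2 fold of 1 in either direction. The 10 points of sheep against goat are filled and lie at 1.77 or above, and 8 of the 10 points of cattle against sheep are filled and lie at -1.92 or below.

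All 3 sheep muscle libraries were above the 6 other muscle libraries for 9 of the 10 genes, NR4A3 being the exception, where 15% of all genes tested showed this. They were above the 15 other libraries of either tissue for 7 genes (EGR1, FOS, FOSB, JUNB, NR4A1, NR4A2 and DUSP1), where 5.74% of all genes did. Sheep muscle had the highest mean of the 6 groups for 8 genes, cattle brain for EGR3 and cattle muscle for NR4A3. The next group down overlapped sheep muscle in range only for EGR2 among these 8, where cattle brain at 4.60 ± 1.57 CPM per kb came after sheep muscle at 8.95 ± 3.85 (SD, n = 3 each). Cattle muscle was the second highest group for FOS and DUSP1 and the lowest of the 6 for EGR1, EGR2, EGR3 and NR4A2.

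Other measures also differed between the muscle groups. Cattle muscle had 40878387 to 53560617 counts per library, sheep muscle 43007347 to 46302643 and goat muscle 23250777 to 25037038. The summed level of 4 of 5 endothelial markers was 81.5 to 94.9 CPM per kb in cattle muscle, 241 to 251 in sheep muscle and 132 to 260.5 in goat muscle. That of 4 of 5 markers of smooth muscle and pericytes was 182 to 199.5 in cattle, 352 to 434 in sheep and 267 to 305 in goat. That of the 7 fibre markers was 37521 to 39629 in cattle, 69526 to 80466 in sheep and 33506 to 52830 in goat. The sheep libraries were thus the highest for the markers of smooth muscle and of fibres, and they overlapped goat for those of endothelium. That of 4 of 5 fibroblast markers was 206 to 653 in cattle, 361 to 543 in sheep and 153 to 193 in goat, with COL3A1 at 0 in goat. MYF5, the one marker of satellite cells that was matched, stood at 1.41 to 2.36 in cattle, 8.43 to 12.8 in sheep and 3.95 to 6.23 in goat. Sums of 3 of 5 macrophage markers were 18.7 to 34.9 in cattle, 11.9 to 15.3 in sheep and 11.8 to 19.2 in goat. The part of these differences in the levels of the early genes was not tested.

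In brain the species differed less. Cattle brain was lower than sheep brain for 3 of 10 genes, where 26.6% of all genes tested were called, 9.25% higher and 17.4% lower. These were NR4A1 (-2.59 ± 0.63, adjusted p = 0.00513), JUNB (-1.52 ± 0.42, adjusted p = 0.0116) and DUSP1 (-1.56 ± 0.49, adjusted p = 0.0226). Sheep brain C held the highest sheep value of all 3 genes, and without it JUNB (-0.86) and DUSP1 (-0.82) were not called, which left NR4A1. The calls of JUNB (-1.35) and DUSP1 (-1.42) were also lost without cattle brain C, and that of DUSP1 without cattle brain A (-1.55) or with no length correction (-1.19). EGR3, which was not called, was called with DESeq2 (1.54) and without sheep muscle A or C (1.47 in both).

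Cattle brain was higher than goat brain for EGR3 (1.73 ± 0.59, adjusted p = 0.035) and EGR2 (1.49 ± 0.45, adjusted p = 0.0197), 2 of 10 genes, where 23.9% of all genes tested were called, 11.7% higher and 12.2% lower. Sheep brain was higher than goat brain for DUSP1 (1.86 ± 0.49, adjusted p = 0.0115) and EGR2 (1.45 ± 0.45, adjusted p = 0.0283), also 2 of 10, where 19.1% were called, 13.3% higher and 5.76% lower. These shares are at or below the background. None of these calls was kept in every fit with 1 library left out: without goat brain C no gene was called in either comparison. Without cattle brain A or B none was called between cattle and goat, EGR3 giving 1.55 and 1.69 and EGR2 1.28 and 1.41. The call of EGR3 was also lost without goat brain A (1.76) or B (1.53), and that of EGR2 with no length correction (1.22). Without sheep brain C the fold of DUSP1 between sheep and goat was 1.12 and not called, with no length correction it was 0.17, and that of EGR2 was not called without sheep brain B (0.81) or goat brain A (1.53). NR4A1, not called between sheep and goat brain, was called with DESeq2 (1.63) and without sheep brain A (2.10) or goat muscle B (1.63). All 3 cattle brain libraries were above the 6 other brain libraries for EGR3 (13.7% of all genes), all 3 sheep brain libraries for DUSP1 (9.72%) and all 3 goat brain libraries for none (8.09%).

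The summed level of the 6 neuron markers was 2393 to 2704 CPM per kb in cattle brain, 1474 to 2964 in sheep brain and 1890.5 to 2904 in goat brain, lowest in sheep brain C. That of 4 of 5 oligodendrocyte markers was 914 to 1423 in cattle brain, 1705 to 1949 in sheep brain and 5392 to 35046 in goat brain, highest in goat brain A. That of 5 astrocyte markers was 2039 to 2960, 3223 to 3758 and 1284 to 3338. Their part in the differences between brain groups was not tested.

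**Figure D4:**
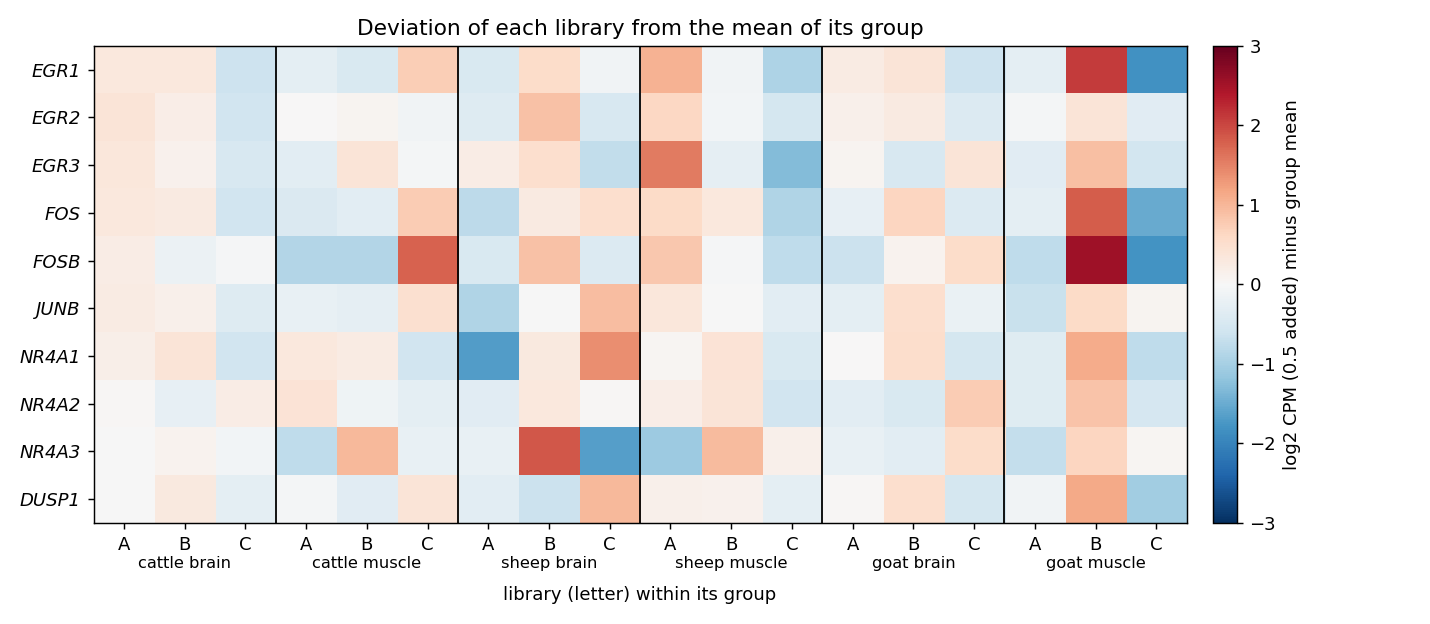
Deviation of each library from the mean of its group for each of the 10 genes, where red is above the mean and blue below it. The scale, labelled log2 CPM, is log2 of the level per kb times the kilobases of the cattle model, with 0.5 added. The column of goat muscle B is red for all 10 genes. Goat muscle A is below the mean for all 10, and the columns of goat muscle C and sheep muscle C are blue for most.

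Libraries of one group differed from each other in these genes more than in most genes. Here all genes means those tested with a mean of at least 1 CPM in the group. EGR2 (0.71 CPM) and EGR3 (0.62 CPM) in cattle muscle were below that cut and were kept among the 10. The median SD of log2 CPM among the 3 libraries of a group was 0.37 for the 10 genes and 0.17 over all genes in cattle brain, 0.75 and 0.64 in sheep brain, and 0.54 and 0.29 in goat brain. In muscle it was 0.46 and 0.22 in cattle, 0.68 and 0.17 in sheep, and 0.90 and 0.36 in goat. Between 8 and 10 of the 10 genes were above the median of all genes in each group. FOSB in goat muscle was 26.6 times as high in its highest library as in its lowest, the widest range of any of the genes in any group.

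The genes tended to deviate in the same direction in a library, more so in muscle. Goat muscle B was the highest of its group for 10 of 10 genes, where 29% of all genes tested were highest in that library, and the mean deviation of the 10 genes there was 1.21 on the log2 scale. It was -0.40 in goat muscle A and -0.81 in C. Sheep muscle A was the highest of its group for 7 genes (32.1% of all genes), with the NR4A genes highest in B, and sheep muscle C was the lowest for 9 (31.8%). Cattle muscle C was the highest for 5 genes, EGR1, FOS, FOSB, JUNB and DUSP1 (29.6%). Goat muscle A and B had near equal sums of the fibre markers, 34049 and 33506 CPM per kb, and of the endothelial markers, 132 and 152, and goat muscle C had 52830 and 260.5. The part of these in the deviations was not tested.

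Correlations of these deviations describe the same pattern, and libraries of a group share its mean, so the 18 values are not independent. Of the 45 pairs of genes 42 had a positive correlation, with a median Pearson r of 0.45 over the 18 libraries and 0.62 over the 9 muscle libraries. The largest mean deviations of the 10 genes were those of goat muscle B (1.21) and C (-0.81). How far r rests on goat muscle was not tested. With the mean deviation of the other genes, r was 0.92 for FOS and 0.90 for EGR1, followed by 0.80 for FOSB and 0.64 for EGR2. The lowest was NR4A3, at 0.07. Over the 9 brain libraries r was 0.75 for FOS and 0.73 for EGR1, and near 0 for EGR3 (0.07), NR4A2 (0.04) and DUSP1 (-0.06).

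Among the 11690 other named genes tested, the 5 whose deviations were most like the mean of the early genes over the 18 libraries were NPTX2 (r = 0.87), RAB1B (0.87), KRT2 (0.81), CXCR5 (0.81) and RBM20 (0.78). The median over all those genes was -0.01. These 5 were picked as the highest of 11690 correlations. How high the top of so many would lie for unrelated genes was not tested. Over the 9 muscle libraries the values were 0.92, 0.95, 0.83, 0.85 and 0.75, and they lay between 0.75 and 0.87 when sheep brain was left out. Both sets of values reuse libraries that had served to pick the genes.

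Other early response genes were taken from a list of 42, of which 25 could be tested over the 3 species. Of these 5 were higher and 16 lower in brain, where 31.1% of all genes tested were called higher and 23.2% lower, and their median log2 fold was -1.27 beside 0.07 over all genes. Higher in brain were NPAS4, a factor of neurons, at 6.21 ± 0.54, EGR4, the fourth EGR gene, and the MAP kinase phosphatases DUSP4 (2.11 ± 0.35) and DUSP6 (1.43 ± 0.26). EGR4 averaged 15.6, 20.9 and 8.47 CPM per kb in cattle, sheep and goat brain, and in muscle at most 0.0124, with sheep muscle at 0. Lower in brain were KLF10 (-3.40 ± 0.22), CCN1, a secreted matrix protein (-3.42 ± 0.33), SRF, the factor that binds the promoters of many early genes (-2.07 ± 0.18), and ATF3. ATF3 averaged 0.682 CPM per kb in cattle brain against 34.2 in cattle muscle and 0.884 in sheep brain against 119 in sheep muscle, and the goat model matched to it had no count in the 6 goat libraries.

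Between sheep and goat muscle 10 of these 25 genes were higher in sheep and 1 lower, where 13.1% of all genes tested were called higher and 10.9% lower. The 25 include ATF3, whose matched goat model had no count, so its folds against goat rest on an empty model. Between cattle and sheep muscle 5 were higher and 5 lower in cattle, where 13.6% of all genes were called higher and 16.8% lower. CCN1 was 2.82 ± 0.42 higher on the log2 scale in sheep than in goat muscle, and SRF 1.11 ± 0.27, while KLF10 (0.74 ± 0.33) was not called. The interaction of species with tissue passed for 9 of the 25, where 25.7% of all genes passed, among them DUSP6 (adjusted p = 0.0303) and CCN1 (adjusted p = 0.0459).

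The kinases and factors that act upstream of early genes were tested for 22 of 24 listed. Over the 3 species 8 were higher and 5 lower in brain, with a median log2 fold of 0.40. Of all genes 31.1% were called higher and 23.2% lower, so these counts are near the background. The kinases CAMK4 (4.41 ± 0.43), CAMK2A (3.32 ± 0.34) and MAP2K1 (1.69 ± 0.17) were higher in brain. The factors ATF1 (-3.01 ± 0.20) and ELK3 (-1.69 ± 0.28) and the kinases RPS6KA3 (-2.93 ± 0.28) and MAPK14 (-1.49 ± 0.21) were lower. Of 12 listed partners and repressors 6 were tested, 1 higher and 3 lower in brain, with a median of -1.22. NAB2, a repressor of EGR proteins, was higher in brain at 1.51 ± 0.24, and RXRG (-3.70 ± 0.38) and RXRA (-1.79 ± 0.22), which can pair with NR4A1 and NR4A2, and MAFK (-1.81 ± 0.15) were lower.

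Of 13 later activity genes of neurons 9 were tested, and 7 were higher and 0 lower in brain (median 6.80), where 31.1% of all genes were called higher and 23.2% lower, led by MFSD2A (7.95 ± 0.39), NRN1 (8.40 ± 0.42), PCSK1 (9.17 ± 0.53) and SORCS3 (6.80 ± 0.46). Of 12 muscle genes known to follow exercise or NR4A receptors 9 were tested, and 9 were lower in brain (median -6.43), among them TRIM63 (-10.50 ± 0.43) and HK2 (-6.43 ± 0.37). Both lists were chosen as genes of neurons or of muscle, so their direction between the tissues says little about the early genes. Between sheep and goat muscle 2 of the 9 muscle genes were higher and 1 lower in sheep, where 13.1% of all genes were called higher and 10.9% lower. Between cattle and sheep muscle 5 were higher in cattle and 1 lower, where 13.6% were called higher and 16.8% lower. Of 15 genes of heat shock and low oxygen 11 were tested, 2 higher and 5 lower in brain (median -0.23), and between sheep and goat muscle 3 were higher and 1 lower in sheep, with the chaperone HSPH1 among those higher.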

How the data were processed

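Read counts per gene and library were deposited by the authors as raw counts for each species on its own gene models, per the file headers. Per the submitters' processing notes, reads were trimmed with Trimmomatic 0.39, aligned with STAR 2.7.6 and counted with featureCounts, and the one build named is ARS-UCD1.2. For strandedness, reads with several placements and the builds of sheep and goat: not given in the sources used here.

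Cattle models were named by position from a RefSeq gene table, 16849 of 27607 in all. Partners were sought first by 2 or more pairs of adjacent exon lengths in common (4 of the 10 genes), then by 1 shared exon length beside matched neighbours (4 genes), then as the sole unmatched model of at least 1000 exonic bases between the nearest matched neighbours (EGR1 and JUNB). That length was chosen after a shorter model beside EGR1 had been seen. In all 14366 genes were matched, and 13074 were tested.

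Counts were fitted with edgeR 4.0.16 in R 4.3.3 (filterByExpr, TMM scaling, robust quasi-likelihood), within a species or over 18 libraries with exonic length as an offset. The steps were tested on simulated data. Alternatives were RLE scaling, library totals, no filter, DESeq2 1.42.0, the replicate letter as a block, stricter partners, no length offset and leaving out each library.

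From each list the up to 4 genes of lowest adjusted p per direction could be named, and the 5 genes most like the 10; a gene so chosen among the kinases is not reported here. The genes, the lists and this rule were chosen with earlier results of these data known. Counting error sets the precision only for the lowest counts; elsewhere the spread between libraries does.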

Additional observations from a re-analysis of the deposited data

Results flagged for a closer look

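The difference between brain and muscle differed between species for 5 of the 10 genes, by the interaction test of edgeR's quasi-likelihood fit over the 18 libraries. The log2 folds set beside each adjusted p come from the separate fits within each species. For NR4A2 the adjusted p was 4.43e-05, with log2 folds of brain over muscle of 1.95 in cattle, -3.36 in sheep and 1.56 in goat. For EGR3 it was 7.5e-05, with 6.82, -1.41 and 3.19. For EGR2 it was 0.00387, with 2.54, -0.998 and 0.82. For EGR1 it was 0.00823, with 2.34, -2.70 and 0.45, and for FOSB 0.0348, with 0.76, -4.22 and -1.10. The goat fold of FOSB was 1.38 without goat muscle B and 0.068 with the replicate letter as a block, and that of EGR1 was -0.096 without goat muscle C. In all 5 genes the sheep fold was the lowest of the 3.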

How the results depend on the processing

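Of 110 results for a gene in a comparison 60 were called, 5 of them by the interaction test, which gives no sign. None of the other called results changed sign in any alternative that tested it, while 19 of the 60 lost their call in at least 1. Scaling by library totals moved the median log2 fold of all genes between brain and muscle to 0.76 in cattle, 1.11 in sheep and 0.86 in goat, and to 1.04 over the 3 species (0.09, 0.17, 0.12 and 0.07 with TMM), so folds between tissues are relative to that shift. With no length offset NR4A2 was lower in cattle than in goat brain (-1.43) and lower in sheep than in goat brain (-1.30), both called, in place of 0.20 and 0.41, neither called; 2 genes were then called between cattle and goat muscle. With only the 4 genes matched by the strictest step (FOSB, NR4A1, NR4A2 and NR4A3), fewer could be called: 1 for cattle against sheep, 0 for cattle against goat and 0 for sheep against goat in brain, and 3, 1 and 4 in muscle.

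With 1 library left out, the number of genes called between brain and muscle was 8 to 9 in cattle, 6 to 8 in sheep, 1 to 6 in goat and 3 to 5 over the 3 species, and 4 to 7 passed the interaction test. In brain 1 to 4 were called for cattle against sheep, 0 to 2 for cattle against goat and 0 to 3 for sheep against goat. In muscle the counts were 8 to 9, 2 to 4 and 9 to 10 in the same order.

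Deviations of same-lettered brain and muscle libraries correlated at -0.05 to 0.02 in cattle, 0.08 to 0.13 in sheep and -0.19 to 0.20 in goat, so the letters were not taken to pair samples, although every sheep library correlated best with its own letter. With the replicate block 9, 6 and 5 genes were called in cattle, sheep and goat, 5 over the 3 species and 7 by interaction. The share of all genes called was taken for the main fits only, so counts from alternative fits have no background beside them. Depth limits NR4A3 in sheep brain C, with 12 counts, and EGR2 in goat muscle, with 14 to 35. It also limits EGR3 and EGR2 in cattle muscle, with 14 to 36 and 24 to 32 counts. The same holds for EGR3 in goat muscle, with 20 to 77, and NR4A3 in goat muscle A, with 28.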
